A study of Mus musculus with 4 samples.

Results

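The oligodendrocyte precursor cells (OPC) of the adult mouse dentate gyrus were the 131 nuclei to which the deposited expression table gives the cluster name OPC, out of 14367 nuclei in 13 clusters. Single nuclei were profiled from mice with a tamoxifen-dependent Cre (CreERT2) of stem and progenitor cells and a CAG floxStop-Sun1/sfGFP reporter, on a C57BL/6J background that were between 6 and 8 weeks of age. In these mice tamoxifen (4 injections over 2 days) activates the recombinase, which marks the nuclear envelope of the cells that express it and of all their later progeny with a green fluorescent protein. Left dentate gyri were taken at 1, 2, 4 or 8 weeks (w1, w2, w4 and w8), those of 4 mice of both sexes were pooled for each week, and green nuclei were sorted, so each week is 1 library of nuclei that carried the label. Every group carries the same alleles and the same tamoxifen, and no mouse without Cre or without tamoxifen was part of these libraries, so label without tamoxifen was not tested.

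OPC are the dividing glial cells that give rise to myelinating oligodendrocytes. They carry the PDGF-A receptor (Pdgfra) and the proteoglycan NG2 (Cspg4), their fate is held by the transcription factors Olig1, Olig2, Sox10 and Nkx2-2, and they receive glutamatergic and GABAergic synapses from neurons although they are not neurons themselves. In the hippocampus they persist throughout adult life, spread evenly through the tissue, and mostly remain precursors.

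Weeks w1, w2, w4 and w8 held 25, 36, 35 and 35 OPC nuclei with 130396, 205550, 159713 and 179539 unique transcript counts (UMIs), 675198 in all. The median OPC nucleus had 4750 UMIs and 2148 detected genes, against 4091 UMIs for the radial glia-like cells (RGL, 1387 nuclei), 4670 for astrocytes (Astro, 67 nuclei, none of them in w8) and 5935 for the 12677 nuclei of the 8 neuronal-lineage clusters. OPC made up 0.872% of the nuclei kept in w1 (95% Clopper-Pearson interval 0.565 to 1.28), 0.848% in w2 (0.595 to 1.17), 0.914% in w4 (0.637 to 1.27) and 1.02% in w8 (0.713 to 1.42). All 4 intervals overlapped, so no difference between weeks in this share was detectable at this number of nuclei. Of non-neuronal nuclei alone, OPC were 4.49% in w1 (2.93 to 6.55) and 26.7% in w8 (19.4 to 35.2), while RGL went from 486 to 83 nuclei. Among OPC and mature oligodendrocytes (Oligo, 45 nuclei) together, the OPC share was 80.6, 78.3, 68.6 and 72.9%, again with overlapping intervals. Intervals here and below cover counting error only, and since each week is 1 pool no test between weeks can be made. No OPC barcode occurred among the kept nuclei of another library. The submitters' sample label names all 4 libraries as adult-born granule cells, whereas the OPC nuclei carried the defining genes of the oligodendrocyte lineage, as follows.

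Levels are given in UMIs of a gene per 1000000 UMIs of the same nuclei (CPM), always in the order w1, w2, w4 and w8 where 4 values follow each other. Pdgfra, on chromosome 5 (75152292 to 75198215, plus strand, GRCm38), was at 936, 890, 720 and 858 CPM in OPC. In RGL it had 4 UMIs among 6100027, in Astro and Oligo none, and 94.7% of OPC nuclei held at least 1 UMI of it. Cspg4, on chromosome 9 (56865033 to 56899870, plus strand), was at 529, 331, 244 and 329 CPM, with 6 UMIs in all RGL nuclei and 1 in all Astro nuclei. Sox10, a factor of the whole oligodendrocyte lineage on chromosome 15 (79154908 to 79165240, minus strand), was at 452, 516, 363 and 323 CPM in OPC, near its 332 CPM in Oligo, and had no UMI in Astro. Prkg2, a cGMP-dependent protein kinase on chromosome 5 (98929773 to 99037351, minus strand), was at 146, 185, 225 and 167 CPM with 2 UMIs in RGL and none in Astro or Oligo. Lrrc4c, a netrin-G ligand on chromosome 2 (96318169 to 97631666, plus strand), was at 8350, 7970, 8740 and 10200 CPM. The other 4 had few UMIs or none in RGL and Astro, whereas Lrrc4c was at 874 CPM in RGL, 1590 in Astro and 478 in the pooled neuronal nuclei. It therefore separated OPC by its level and not by its presence. For each of these 5 genes the lowest OPC library lay above every RGL, Astro and neuronal library.

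**Figure D1:**
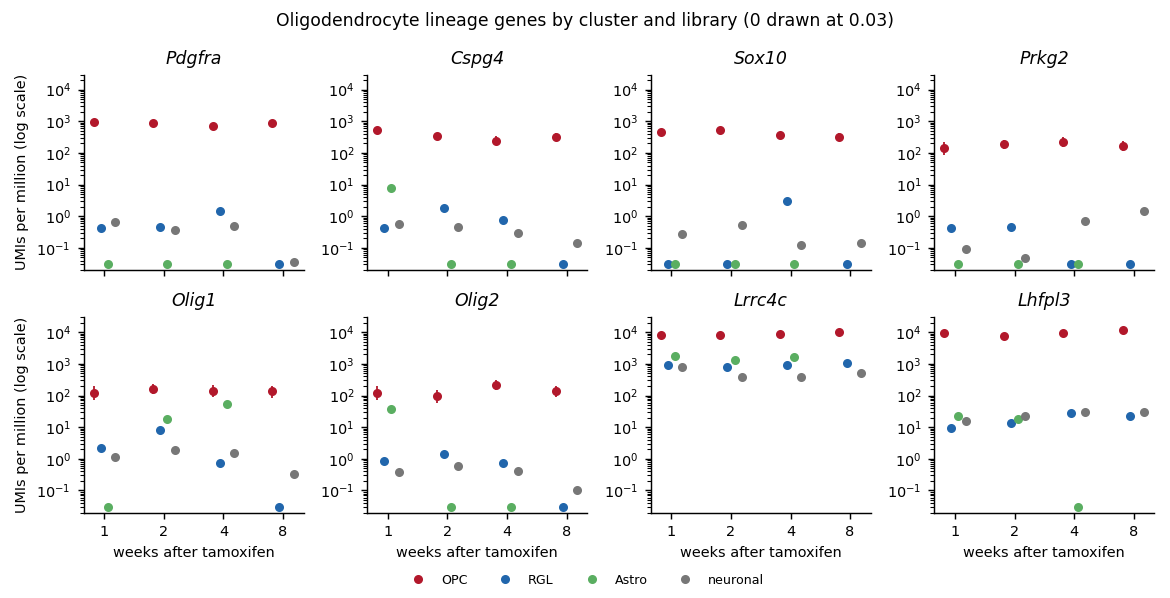
Levels of 8 oligodendrocyte lineage genes in CPM (log axis) in w1 to w8 libraries, 1 point per library for OPC, RGL, Astro and the pooled neuronal nuclei (Oligo is not drawn), with 95% Poisson intervals on the OPC points; libraries without a UMI are drawn at 0.03, and w8 has no Astro nuclei. In every week the OPC point is the highest of those drawn for all 8 genes, and Pdgfra lies between 720 and 936 in OPC.

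Single nuclei carried the same pattern. Of the 6 genes Cspg4, Prkg2, Sox10, Pdgfra, Olig1 and Olig2, at least 3 had a UMI in 117 of 131 OPC nuclei (89.3%), in 5 of 45 Oligo nuclei (11.1%) and in no nucleus of the other 11 clusters. All 6 were read in 16 OPC nuclei, 1 gene only in 3 nuclei, and none of the 131 lacked all of them. A list of 22 OPC identity genes summed to between 27000 and 65000 CPM in every OPC nucleus (median 43800), while the highest of the 14236 other nuclei reached 19000 CPM, in RGL. The values of that list did not overlap between OPC and any other cluster, which describes clusters that were drawn on the same transcripts and is not independent evidence for them.

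Because the leading genes were high together in OPC, the promoter windows of 2 of them are shown, each from 250 bases before to 50 bases after the annotated start (RefSeq, GRCm38.p6). The gene positions given above are from the GENCODE annotation, whose starts can differ from those of RefSeq. Pdgfra lies at chr5:75152001-75152300 on the plus strand and Lhfpl3, a tetraspan gene with the largest number of OPC UMIs in the identity list, at chr5:22745804-22746103 on the plus strand. Capitals mark matches to 3 E-box hexamers on either strand, namely CAGCTG, the asymmetric form CAGATG (which on its opposite strand appears as CATCTG), and finally the form CATATG, the letters bound by basic helix-loop-helix factors such as the Olig proteins.
Pdgfra: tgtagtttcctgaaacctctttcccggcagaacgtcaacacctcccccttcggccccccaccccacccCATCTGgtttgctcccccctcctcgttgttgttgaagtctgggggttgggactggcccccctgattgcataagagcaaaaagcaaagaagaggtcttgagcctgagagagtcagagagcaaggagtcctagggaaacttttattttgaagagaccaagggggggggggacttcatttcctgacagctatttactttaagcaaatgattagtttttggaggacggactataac
Lhfpl3: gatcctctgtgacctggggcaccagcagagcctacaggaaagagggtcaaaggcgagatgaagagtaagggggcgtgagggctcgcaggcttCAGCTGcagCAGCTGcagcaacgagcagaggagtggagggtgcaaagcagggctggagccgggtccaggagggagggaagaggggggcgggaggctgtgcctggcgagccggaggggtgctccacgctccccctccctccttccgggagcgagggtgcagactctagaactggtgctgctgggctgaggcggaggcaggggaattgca
Of the 20 leading genes named below, 12 had a window in the RefSeq table, 15 windows in all since S100a3 has 4. An E-box was present in 8 of the 15 windows (53.3%), against 33.4% of all 32851 windows of that length. Its CAGCTG form was present in 6 (40.0% against 16.3%). S100a3 gave 3 of the 8 and 3 of the 6. The SOX hexamers ACAAAG and ACAATG, on either strand, were present in 2 windows (13.3%) against 28.6% of all. Neither motif was found in the Cspg4, Neu4, Nxph1, Fam19a4 and Ugt8a windows. These counts describe letters in short windows and were not tested.

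OPC sums were compared with RGL, with Astro and with the unweighted mean of the 8 neuronal-lineage clusters (NPC, NB1, NB2, GCimm1, GCimm2, GCyoung, GCmat1, GCmat2), in order to describe what distinguishes the oligodendrocyte branch from the stem cells and from the other labelled progeny. UMIs were summed per library and cluster and fitted with edgeR over 11548 genes. The neuronal mean is the mean of the 8 fitted log values, so clusters with low levels pull it down. It can therefore lie below the level of the pooled neuronal nuclei, which follows the clusters with the most UMIs. A gene is called higher or lower at a fold difference of at least 1.5 and an adjusted p of at most 0.05 (edgeR quasi-likelihood, Benjamini-Hochberg over all genes). Since the clusters were drawn on these same values, a call says only that a difference was large against the spread between library sums. That spread was estimated over 38 sums of all clusters with 22 residual degrees of freedom, and Astro had 3 sums, since w8 held no Astro nucleus. Called genes were 3433 against RGL (29.7% of the genes tested, with 14.5% higher and 15.2% lower in OPC), 2381 against Astro (20.6%, with 11.0% higher and 9.60% lower) and 3198 against the neuronal mean (27.7%, with 14.9% higher and 12.8% lower). The highest level among the 13 clusters lay in OPC for 634 genes (5.49%) and for 21 of the 22 OPC identity genes described below. In all 3 comparisons 649 genes were higher in OPC (5.62%) and 203 were lower (1.76%). The balance of higher and lower calls depended on scaling: relative log expression factors gave 1998 and 993 against the neuronal mean in place of 1719 and 1479, and DESeq2 gave 2147 and 933 there and 1897 and 1273 in place of 1673 and 1760 against RGL. The median log2 difference of all genes was -0.14 against RGL, 0.07 against Astro and -0.14 against the neuronal mean, and DESeq2 moved it to 0.01, 0.01 and 0.09. Differences below are not shifted by these medians and are to be read beside them. Counts of called list members are likewise to be read beside the shares of all genes given above.

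The leading genes, by the smallest of the 3 log2 differences, were Neu4, C430049B03Rik, Pdgfra, A930009A15Rik, Tmem132d, Sox10, RP23-240A11.2, Gjc3, Prkg2, S100a3, Lhfpl3, Fign, Nxph1, Sema3d, Fam196b, Fam19a4, Ugt8a, Stk32a, Cspg4 and Cacng4. Neu4, a sialidase that trims sialic acid from glycoproteins, was at 245, 375, 213 and 184 CPM with 1 UMI in all RGL nuclei, none in Astro and none in Oligo. Tmem132d, a transmembrane gene, was at 890, 759, 920 and 785 CPM and exceeded RGL by 9.76 ± 0.29 on the log2 scale. Here and below, the value after ± is the log2 difference divided by the square root of its quasi-likelihood F. It rests on the spread over all 38 sums and is not a standard error over 4 libraries. For genes with few UMIs in a cluster it can be narrower than counting error. Nxph1, a secreted ligand of neurexins, was at 3530, 3580, 3420 and 4090 CPM, was read in 100% of OPC nuclei and exceeded RGL by 10.85 ± 0.36, Astro by 8.01 ± 0.47 and the neuronal mean by 9.77 ± 0.18. Lhfpl3 was at 9370, 7700, 9150 and 11400 CPM against 15.4 in RGL, 14.9 in Astro and 81.9 in Oligo. For these 4 genes no OPC library overlapped with any RGL, Astro or neuronal library. Since the genes were chosen for calls in all 3 comparisons and 1 direction in every library, this was nearly given by the choice.

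Some leading genes were shared with mature oligodendrocytes. Gjc3, a connexin that couples oligodendrocytes, was at 299, 331, 163 and 490 CPM in OPC and 778 in Oligo. Ugt8a, which makes the myelin lipid galactosylceramide, was at 115, 122, 144 and 162 CPM in OPC and 892 in Oligo. Fign, a microtubule-severing enzyme, was at 123, 277, 169 and 284 CPM in OPC and 378 in Oligo. Sema3d, a secreted semaphorin, leaned the other way, at 445, 394, 595 and 540 CPM in OPC and 72.8 in Oligo. Cacng4, Dpp10, a subunit of Kv4 potassium channels, and Gm20446 had no UMI in Astro, and against a floor of 3 counts their OPC levels were at least 78.8-fold, 95.0-fold and 113-fold higher. Prkcq, a protein kinase C that was among the 5 genes furthest above the neuronal mean, was at 261, 277, 213 and 217 CPM, against 182 in Oligo and 3.11 in RGL.

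The genes furthest below each reference were absent from the OPC reads, at 0 of 675198 UMIs. This was nearly given by the ranking, since a count of 0 yields the most extreme fitted differences. Against RGL these were Gli3, a Hedgehog effector with 4037 UMIs in RGL, Rmst with 3438, Sntb1 with 2755, Pdzrn3 with 2551 and A330093E20Rik with 2409. Against Astro they were Rmst, Fam20a with 113 Astro UMIs, Slco1c1, a thyroid hormone transporter, with 200, Gli3 with 193 and Daam2, a Wnt signalling protein, with 154. Daam2 was present in Oligo, at 405 CPM. Against the neuronal mean they were Cnih3 and Cacng2, auxiliary subunits of AMPA receptors, Lzts1, Ston2 and Mlip, at 50.2 to 165 CPM in the pooled neuronal nuclei. A count of 0 in OPC allows a level of up to 4.44 CPM, so these genes were not read at this depth but are not shown to be absent.

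The study's table leaves out genes read in under 1% of nuclei, and OPC were 0.912% of nuclei. A gene read in OPC alone could therefore not enter the table. Of 845 tested genes outside the table, 81 were higher in OPC in all 3 comparisons (9.59%), against 568 of 10703 in the table (5.31%). Of these 81 genes, 62 were read in at most 1% of nuclei and 14 in at least 80%. Cspg4, Prkg2, Neu4, Olig2, Nkx2-2, C1ql1 and Gpr17 were among the genes outside the table and are not among its values. Among the 10 genes that led this group were Neu4, C430049B03Rik, A930009A15Rik, RP23-240A11.2, 4933407I08Rik, Prkg2, S100a3, Rbpjl and Fam196b. C430049B03Rik was at 146, 170, 100 and 139 CPM and RP23-240A11.2 at 176, 122, 150 and 223 CPM, both with no UMI in RGL, Astro or Oligo, which makes them at least 286-fold and 337-fold higher than RGL. 4933407I08Rik was the rarest of them, with 20 UMIs, all in OPC. With DESeq2, 5 of these 10 genes, among them C430049B03Rik, A930009A15Rik, 4933407I08Rik and Rbpjl, were called in none of the 3 comparisons, and RP23-240A11.2 was not called against Astro.

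The 22 OPC identity genes, a list chosen with earlier results of these data known, were higher in OPC for 21 genes against RGL, 20 against Astro and 22 against the neuronal mean, and none was lower. Their median log2 difference was 6.36, 5.66 (4.61 with genes at 0 in Astro set to their bound) and 7.10. Their summed level was 44900, 40600, 43600 and 48800 CPM in OPC, 7330 in RGL, 7550 in Astro, 2870 in neuronal nuclei and 1880 in Oligo. In every week OPC lay above the reference clusters. Ptprz1, a receptor phosphatase of glial cells, was the member that did not separate OPC from RGL, at 2870, 2910, 2860 and 3120 CPM in OPC and 3710 in RGL (-0.16 ± 0.21).

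**Figure D2:**
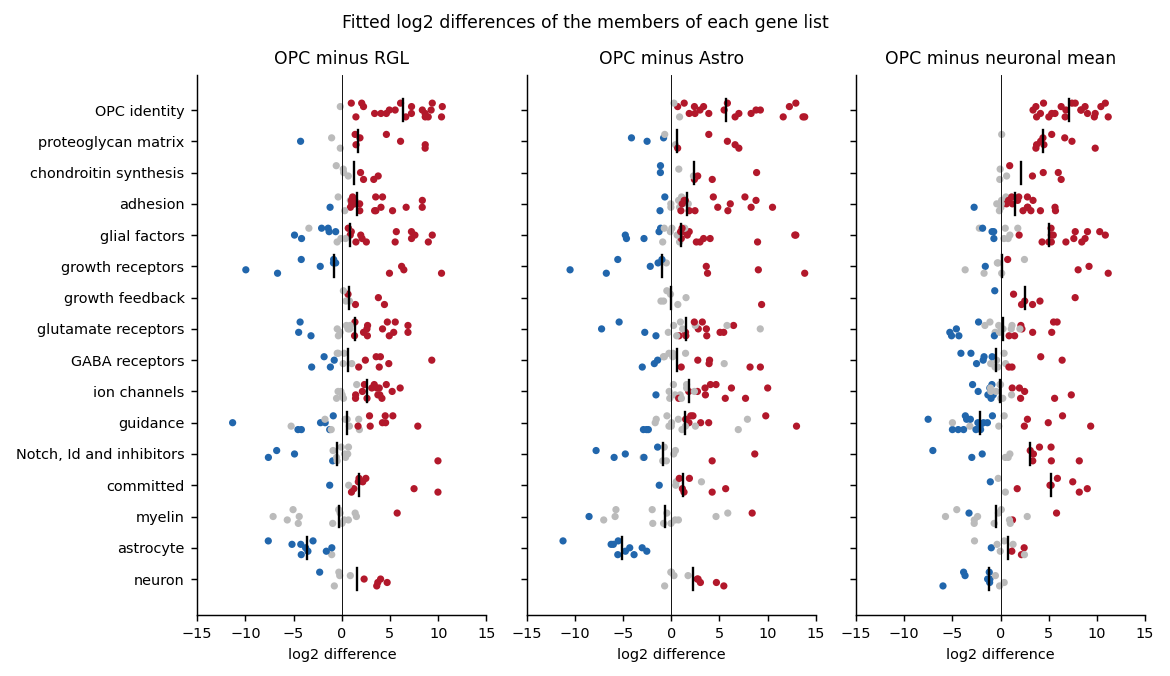
Fitted log2 differences of OPC against RGL, Astro and the mean of the neuronal-lineage clusters for the tested members of 16 gene lists, 1 point per gene, red where higher and blue where lower in OPC, grey where neither, with a black bar at the list's median; values of genes without a UMI in one of the clusters depend on the fit and are not bounds. The OPC identity genes lie to the right in all 3 panels with medians of 6.36, 5.66 and 7.10, the astrocyte genes to the left of 0 against RGL and Astro, and the neuron and guidance genes mostly to the left against the neuronal mean.

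Transcription factors of the glial lineages divided into 2 sets. Of 25 tested factors (27 listed), 14 were higher and 6 lower in OPC against RGL, 13 and 5 against Astro, and 15 and 4 against the neuronal mean, where DESeq2 left 2 lower. Olig1, Olig2, Sox10, Nkx2-2, Sox6 and Sox8 are also members of the OPC identity list. Olig1 was at 123, 165, 144 and 134 CPM and Olig2 at 123, 97.3, 219 and 139 CPM, with 23 and 6 UMIs in RGL. Nkx2-2 was sparse, at 38.3, 77.8, 43.8 and 55.7 CPM, and its call against Astro (5 UMIs, 1.87 ± 0.67) was lost without w1, w2 or w4, at log2 differences of 1.12 to 2.26 over the alternatives that lost it. Myt1, a zinc-finger factor, was at 445, 486, 263 and 379 CPM in OPC, against 2.30 in RGL, 0 in Astro and 333 in NPC. Sox5 (1620, 1400, 1420 and 1710 CPM) and Sox6 (2430, 1940, 2270 and 2590 CPM), SoxD factors that hold back differentiation, were read in RGL as well, and OPC exceeded RGL by 0.87 ± 0.15 and 0.98 ± 0.18 but the neuronal mean by 5.47 ± 0.12 and 7.75 ± 0.15. Zfp488 had 15 UMIs in OPC and none in RGL or Astro, and was not called by DESeq2.

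The factors lower than in RGL and Astro included known regulators of stem cells and astrocytes. Sox9 had 4 UMIs in OPC, against 138 CPM in RGL and 188 in Astro (-4.18 ± 0.53 and -4.64 ± 0.60). Id4, an inhibitor of bHLH factors, also had 4 UMIs, against 207 and 182 CPM (-4.91 ± 0.46 and -4.76 ± 0.58). Nfia and Nfib, nuclear factors of gliogenesis, were read in OPC at 972 and 527 CPM but lay below RGL by 1.32 ± 0.18 and 1.42 ± 0.19 on the log2 scale. Both were also below the neuronal mean, by 0.71 ± 0.15 and 1.86 ± 0.16, a call that Nfia lost with relative log expression factors and DESeq2. Sox2 was listed at 0 in every cluster and gave no value. Of 8 tested neurogenic factors only Sox4 was higher than the neuronal mean (76.7, 77.8, 93.9 and 83.5 CPM, 1.26 ± 0.30, though the pooled neuronal nuclei had 78.1 CPM and NPC 273), and 5 were lower, among them Prox1 (61.4, 38.9, 37.6 and 16.7 CPM against 553 in neuronal nuclei).

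Growth factor receptors were divided too. Of 11 tested receptors (13 listed), Pdgfra, Erbb3, Erbb4 and Ntrk3 were higher and the other 7 lower against RGL, of which Fgfr2 was lost with relative log expression factors, DESeq2, thinning or without w4. Against Astro 4 were higher and 6 lower, and against the neuronal mean 4 were higher and 1 lower. Erbb4, a neuregulin receptor, was at 4200, 3300, 4460 and 3590 CPM, close to 3910 in Oligo and above RGL by 6.20 ± 0.31. Ntrk3, the receptor of neurotrophin-3, was at 675, 691, 852 and 780 CPM, above RGL by 4.94 ± 0.23, and was not called against the neuronal mean (0.12 ± 0.15). Egfr had 2 UMIs in OPC against 363 CPM in RGL, and Fgfr3 3 UMIs against 98.5 CPM. Fgfr1 was at 69.0, 63.2, 56.4 and 78.0 CPM, lower than RGL by 2.24 ± 0.26. Every OPC library lay below the pooled RGL level of these 3 receptors.

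Ligands and feedback inhibitors of the same pathways were read too. Of 8 tested ligands 3 were higher and 3 lower against RGL, among them Nrg1 (61.4, 112, 81.4 and 89.1 CPM, 4.70 ± 0.44) and Pdgfd (7.67, 14.6, 25.0 and 16.7 CPM against 369 in RGL). Pdgfa, the main ligand of Pdgfra, had 3 UMIs in OPC. The lower calls of Pdgfa and Igf1 against RGL were both lost with DESeq2 and without w1, which left 3 ligands higher and 1 lower. In the main fit 14.5% of all genes tested were higher and 15.2% lower against RGL. Of the 7 Sprouty, Spred and Dusp6 genes, which damp receptor tyrosine kinase signalling, 6 were higher against the neuronal mean, 4 against RGL and 1 against Astro. The 1 lower call, of Spred2 against the neuronal mean, was lost under 11 alternatives, DESeq2 among them. Against RGL 2 were higher after thinning and 1 with only the clusters compared in the fit. These fits tested 8498 and 4894 genes in place of 11548, and a member that was not tested is not a lost call. Spry1 was at 30.7, 48.6, 31.3 and 27.8 CPM against 1.80 in RGL and no UMI in Astro. The ETS factors Etv4 (238, 277, 244 and 306 CPM) and Etv5 (169, 204, 175 and 156 CPM), known targets of that signalling, exceeded RGL by 2.10 ± 0.20 and 1.96 ± 0.26 and the neuronal mean by 7.60 ± 0.23 and 5.27 ± 0.27.

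Matrix genes of OPC were read against the same 3 comparisons. Of 10 proteoglycan and matrix genes 9 were higher and none lower against the neuronal mean, 7 and 1 against RGL, and 5 and 3 against Astro. The median log2 differences were 4.45, 1.67 and 0.56. The 5 genes higher against Astro were Cspg4, Vcan, Ptprz1, Tnr and Matn4, which are all members of the OPC identity list too. To that extent the matrix list restates the identity list. Against Astro, DESeq2 gave 4 higher and 1 lower, as did leaving out w4, and the lower call of Bcan was lost without any 1 of the 4 libraries. Vcan (versican) was at 1460, 1120, 1750 and 1590 CPM, above RGL by 6.09 ± 0.19, and Tnr (tenascin-R) at 4980, 4800, 5080 and 4370 CPM, above RGL by 8.65 ± 0.27 and the neuronal mean by 3.74 ± 0.13. Tnc (tenascin-C) showed the reverse, at 38.3, 9.73, 18.8 and 27.8 CPM against 544 in RGL (-4.28 ± 0.39). The enzymes that build chondroitin sulfate chains were higher for 4 of 8 tested genes against RGL and Astro and for 5 against the neuronal mean. None was lower against RGL or the neuronal mean, and 2 were lower against Astro, Csgalnact1, whose call was lost after thinning, and Chsy1, whose call was lost under 7 alternatives. Xylt1, which starts the chain and is also in the OPC identity list, was at 2490, 3040, 2640 and 3200 CPM. It exceeded RGL, Astro and the neuronal mean by 2.25 ± 0.16, 2.41 ± 0.20 and 6.29 ± 0.11. Chst11, which adds 4-O-sulfate, was at 943, 968, 933 and 1110 CPM and exceeded them by 3.77 ± 0.17, 2.75 ± 0.25 and 3.31 ± 0.12. Both had 18.2 CPM or less in Oligo.

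Adhesion genes, many of them synaptic organizers, were high in OPC as a group. The 22 genes summed to 58000, 50700, 54100 and 58800 CPM, against 19400 in RGL and 25500 in both Astro and neuronal nuclei. Higher and lower calls were 18 and 1 against RGL, 14 and 2 against Astro and 15 and 1 against the neuronal mean. Lrrc4c, Pcdh15 and Megf11, higher in each comparison, are also members of the OPC identity list. Dscam was at 5120, 3860, 3460 and 4570 CPM against 14.3 in RGL (8.34 ± 0.26), Pcdh15 at 5340, 4110, 4770 and 5050 CPM against 17.5 (8.35 ± 0.32), and Nrxn3, a presynaptic neurexin, at 3330, 3460, 3630 and 3160 CPM against 44.3 (6.67 ± 0.28). Cntn1, Lrrtm3 and Opcml exceeded the neuronal mean by 3.15 ± 0.18, 2.79 ± 0.15 and 1.89 ± 0.16. Cntnap2 was the one member called lower than the neuronal mean, at 35.5 CPM against 309.

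Synaptic receptor genes gave a profile unlike both glia and granule neurons. Of 23 tested glutamate receptor genes, 13 were higher and 3 lower against RGL, 11 and 4 against Astro, and 8 and 6 against the neuronal mean. Among AMPA receptor subunits Gria4 was at 1190, 1040, 1260 and 1470 CPM, above RGL by 6.86 ± 0.24, Astro by 6.47 ± 0.40 and the neuronal mean by 2.11 ± 0.12, and Gria3 at 537, 613, 751 and 618 CPM, above the neuronal mean by 2.22 ± 0.16 although GCmat1 had 770 CPM. Gria1 was at 38.3, 58.4, 119 and 94.7 CPM against 2580 in neuronal nuclei (-4.32 ± 0.26). Gria2 was at 1330, 1440, 1670 and 1480 CPM and was called in none of the 3 comparisons. Cacng4, which controls AMPA receptor gating, was at 828, 749, 564 and 691 CPM, while its neuronal relative Cacng2 had no UMI.

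NMDA receptor genes split in a similar way. Grin3a was at 629, 803, 639 and 791 CPM, above RGL by 5.54 ± 0.24 and the neuronal mean by 5.50 ± 0.17. Grin2a had 9 UMIs in OPC (13.3 CPM) against 2130 CPM in neuronal nuclei, and Grin2b was at 7.67, 58.4, 56.4 and 27.8 CPM against 970 in RGL and 1890 in neuronal nuclei. Grm5, a metabotropic receptor, was at 1490, 1230, 1620 and 1830 CPM and was called higher in all 3 comparisons. The call against the unweighted neuronal mean was 0.89 ± 0.16, while GCmat1 had more than OPC, at 2330 CPM. Grm3, by contrast, was at 61.4, 9.73, 6.26 and 39.0 CPM against 1200 in Astro (-5.40 ± 0.38).

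**Figure D3:**
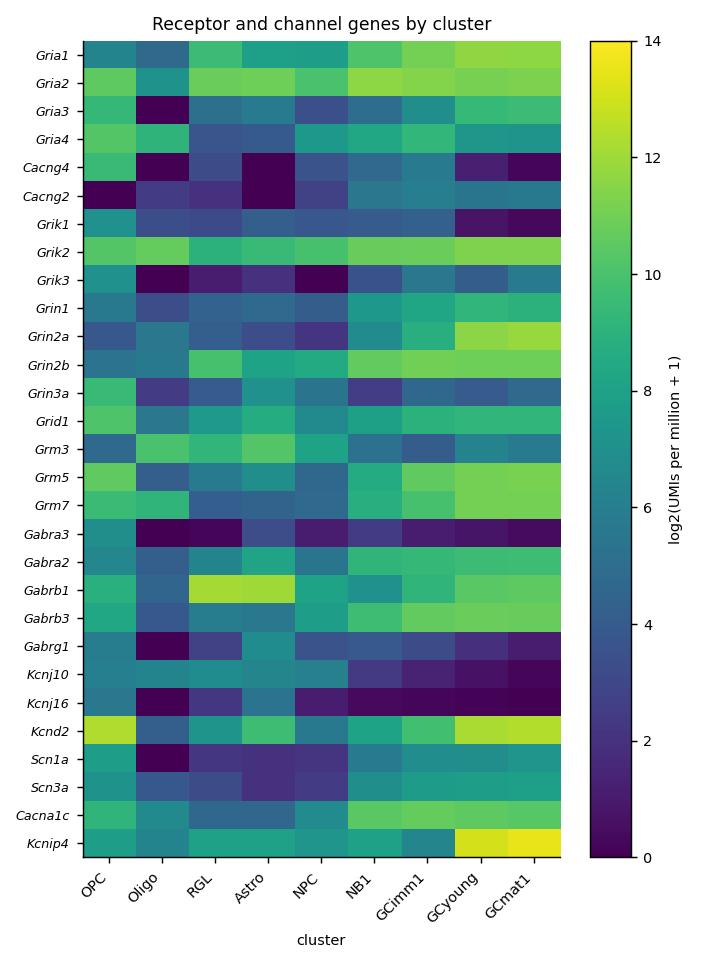
Heat map of log2(CPM + 1) for 29 receptor and channel genes in 9 clusters, pooled over libraries. The OPC column is bright for Gria4, Cacng4, Grin3a and Kcnd2, where OPC had 1240, 705, 727 and 5090 CPM, and dark for Gria1, Grin2a and Grin2b, which are brighter in 1 or more of the granule cell columns.

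Of 14 GABA receptor genes and the chloride cotransporters Slc12a2 and Slc12a5, 16 genes in all, 7 were higher and 4 lower against RGL, 6 and 3 against Astro, and 4 and 6 against the neuronal mean. Fitting only the clusters compared left 4 higher against RGL, but it tested 4894 genes in place of 11548, and an untested member is not a lost call. Thinning left 3 higher against Astro. Among all genes tested, the higher and lower shares were 14.5% and 15.2% against RGL and 11.0% and 9.6% against Astro. They were 14.9% and 12.8% against the neuronal mean. Gabra3 was at 92.0, 146, 119 and 106 CPM in OPC, with 1 UMI in RGL and 3 in Astro. Gabrb1 was at 529, 501, 426 and 451 CPM, below RGL (4460 CPM) by 3.13 ± 0.24 and below Astro by 3.00 ± 0.26.

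Of 21 tested ion channel genes 15 were higher and none lower against RGL, and 11 and 1 against Astro. Against the neuronal mean 6 were higher and 7 lower, with a median log2 difference of -0.06 that became 0.11 with relative log expression factors and 0.12 with DESeq2. Kcnd2, an A-type potassium channel, was at 5360, 4470, 4740 and 5910 CPM, above RGL by 5.22 ± 0.24 and near its 5300 CPM in mature granule cells (GCmat1). Scn1a, a sodium channel, was at 268, 214, 200 and 234 CPM, above RGL by 6.05 ± 0.29. Kcnj10, the inward rectifier of glia, was at 46.0, 77.8, 68.9 and 55.7 CPM and did not pass the thresholds against RGL (111 CPM) or Astro (80.6 CPM), whereas Kcnj16 (38.3, 29.2, 81.4 and 44.6 CPM) exceeded RGL by 3.74 ± 0.51.

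Guidance genes were mostly lower than in neurons, with 14 of 23 lower and 5 higher against the neuronal mean, against 8 higher and 7 lower for RGL and 8 and 3 for Astro. Of the lower calls against RGL, Nrp1 was lost under 7 alternatives, relative log expression factors and DESeq2 among them, and Epha4 under 5. The shares of all genes tested were 14.9% higher and 12.8% lower against the neuronal mean. Against RGL they were 14.5% and 15.2%, and against Astro 11.0% and 9.6%. Unc5c and Dcc, both netrin receptors, were at 1730, 1440, 1490 and 1720 CPM and at 2310, 2020, 2290 and 2430 CPM, above RGL by 4.54 ± 0.25 and 5.29 ± 0.33, with Dcc below the neuronal mean by 0.84 ± 0.22. Slit3 had 2 UMIs in OPC against 1640 CPM in neuronal nuclei. Lpar1, a lysophosphatidic acid receptor, had no UMI in OPC and 401 CPM in Oligo.

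Among Notch pathway genes, Id genes and known inhibitors of differentiation, 4 were lower and 1 higher of 13 against RGL and 5 and 2 against Astro. DESeq2 left 2 lower against RGL, and without w1 3 were lower and 1 higher against Astro, where the calls of Gpr37, Gpr37l1 and Dll1 were lost. The lower call of Gpr37 against RGL was lost under 10 alternatives, leaving out any 1 library among them. Against the neuronal mean 7 were higher and 3 lower. Among all genes tested, the higher and lower shares were 14.5% and 15.2% against RGL and 11.0% and 9.6% against Astro. They were 14.9% and 12.8% against the neuronal mean. Notch2 had 3 UMIs in OPC against 1010 CPM in RGL and 286 in Astro (-7.62 ± 0.37 and -5.92 ± 0.52). Notch1 was at 61.4, 68.1, 75.1 and 55.7 CPM against 148 in RGL (-0.95 ± 0.25), a call lost with DESeq2 and after thinning. Lingo1, a brake on differentiation, had 7 UMIs.

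Between precursors and mature oligodendrocytes, the OPC nuclei were on the precursor side. The 14 myelin genes summed to 138, 146, 87.7 and 117 CPM, against 115 in RGL, 155 in Astro, 249 in neuronal nuclei and 23000 in Oligo. Mbp, a main protein of myelin, had 24 UMIs in OPC (35.5 CPM), against 6300 CPM in Oligo, and Mobp, Opalin, Cldn11, Ermn and Aspa had none. Of the list only Myrf, the factor that switches on myelin genes, was higher than in RGL (7.67, 29.2, 31.3 and 11.1 CPM from 14 UMIs, against 2 UMIs in RGL and 214 CPM in Oligo). The median of the list was -0.25 against RGL and -0.44 against the neuronal mean. With DESeq2 these became 0.22 and 0.98, and with relative log expression factors -0.11 and -0.24.

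Genes known from committed precursors gave a different picture. Of 10 tested (13 listed), 8 were higher and 1 lower against RGL, 6 and 1 against Astro and 7 and 1 against the neuronal mean. Against Astro DESeq2 gave 4 higher, without the calls of Gpr17 and Nfasc, and the lower call of Rras2 against the neuronal mean was lost under 8 alternatives. The list summed to 2790, 2570, 2400 and 2330 CPM in OPC, against 3280 in Oligo, 1350 in Astro, 1070 in RGL and 707 in neuronal nuclei. Tcf7l2, the gene lower than in RGL and Astro, was at 170 CPM in OPC and 448 in RGL. It was higher against the neuronal mean. Bcas1 was at 591, 559, 595 and 501 CPM in OPC and 920 in Oligo, with 3.44 in RGL. Tns3 was at 383, 370, 388 and 345 CPM, above RGL by 1.78 ± 0.21. Enpp6, a marker of newly forming oligodendrocytes, had no UMI in OPC, and Bmp4 had 4. At least 1 UMI of Gpr17, Bcas1 or Enpp6 was read in 82.4% of OPC nuclei (74.8 to 88.5) and of Bcas1 alone in 80.9%, against 1.51% of RGL, 7.46% of Astro and 100% of Oligo nuclei. After thinning each nucleus to 2000 UMIs the shares were 61.8% in OPC and 0.729% in RGL.

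Gpr17, a receptor that peaks in committed precursors, had 43 UMIs in all OPC nuclei, so a nucleus without a UMI is not shown to lack it. It was read in 35 nuclei (26.7%, 19.4 to 35.2), with 4, 15, 5 and 11 nuclei from w1, w2, w4 and w8, against no RGL nucleus, no Oligo nucleus and 5 of 3356 GCmat1 nuclei. The nuclei with Gpr17 had a median of 5733 UMIs and those without it 4560, and thinning to 2000 UMIs left 8.40%. Median depth was higher with Gpr17 in w1, w2 and w4 and lower in w8 (4731 against 5319.5 UMIs). Bcas1 was at 656 CPM in the nuclei with Gpr17 and 518 in those without, and higher with Gpr17 in all 4 weeks. Pdgfra was at 727 and 901 CPM, lower with Gpr17 in w1, w2 and w8 and about the same in w4 (723 and 719 CPM). Neu4 was at 259 and 261 CPM. These nuclei share their libraries, and the part of depth in the Bcas1 and Pdgfra values was not tested.

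A minority of OPC nuclei carried many cell-cycle transcripts. The 28 cell-cycle genes summed to 245, 623, 601 and 301 CPM in OPC, against 326 in RGL and 4030 in NPC, the dividing neuronal progenitors. A share of 58.8% of OPC nuclei had at least 1 UMI of the list (49.8 to 67.3), close to 56.6% of RGL and below 94.3% of NPC, and after thinning to 2000 UMIs it was 39.7% (31.3 to 48.6), 37.9% and 90.3%. Mature granule cells, which do not divide, gave 61.6% at a median of 8138 UMIs and 23.4% (21.9 to 24.8) after thinning, so 1 UMI of the list does not mark a dividing nucleus. With a threshold of 5 of the genes, set after the values were seen, 7 of 131 OPC nuclei passed (5.34%, 2.18 to 10.7), 0, 3, 2 and 2 of them by week, against 19 of 1387 RGL nuclei (1.37%), 108 of 211 NPC nuclei (51.2%) and none of the 45 Oligo or 67 Astro nuclei. In 3 of these OPC nuclei 11, 14 and 15 of the genes were read, Top2a and Cenpf among them in each, 2 nuclei being from w2 and 1 from w4. They held 70 of the 128 UMIs of the list in w2 and 38 of 96 in w4, and without them, an alternative chosen after seeing the data, the list was at 306 CPM in w2 and 376 in w4. These 3 nuclei had 5444, 10776 and 5586 UMIs, at or above the OPC median, and after thinning 2 of 131 OPC nuclei (1.53%) and 0.802% of RGL nuclei reached 5 genes. Of 26 tested genes 3 were higher and 1 lower in OPC against RGL, where 14.5% and 15.2% of all genes tested were. Across the alternatives tried the number higher in the list ranged from 0 to 9.

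The OPC sums were also read for markers of other cell types. All 10 astrocyte markers were lower than in Astro and 9 were lower than in RGL. They summed to 767, 691, 776 and 930 CPM against 14700 and 8950, with no UMI of Gjb6 and 3 of Gja1 in OPC. The 10 neuron markers summed to between 2740 and 2990 CPM in OPC against 10500 in neuronal nuclei. They were lower for 7 genes and higher for none against the neuronal mean, but higher for 5 of 10 against RGL. Microglia, endothelial, vascular leptomeningeal and pericyte lists summed to 56.3, 8.89, 5.92 and 2.96 CPM, between 0 and 99.7 CPM in single weeks, with 5 of 10, 3 of 7, 6 of 8 and 4 of 6 genes at 0. The part of RNA from other cells in the neuron list was not tested.

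Most OPC genes had like levels at w1 and w8. Of 1117 genes with at least 100 OPC UMIs, 97.7% had a w8 level within 2-fold of w1, with 15 at least 2-fold higher and 11 at least 2-fold lower, a median ratio of 0.99 and a range of 0.319 to 3.15. The median coefficient of variation over the 4 OPC libraries was 16.9%. The root mean square counting error of the same genes had a median of 15.6%. An SD of 4 values mostly falls below the true SD, so these figures are not like for like. The Poisson intervals of w1 and w8 did not overlap for 52 genes, 30 higher and 22 lower in w8, and with 1 pool per week such differences cannot be told apart from differences between the pools of mice.

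**Figure D4:**
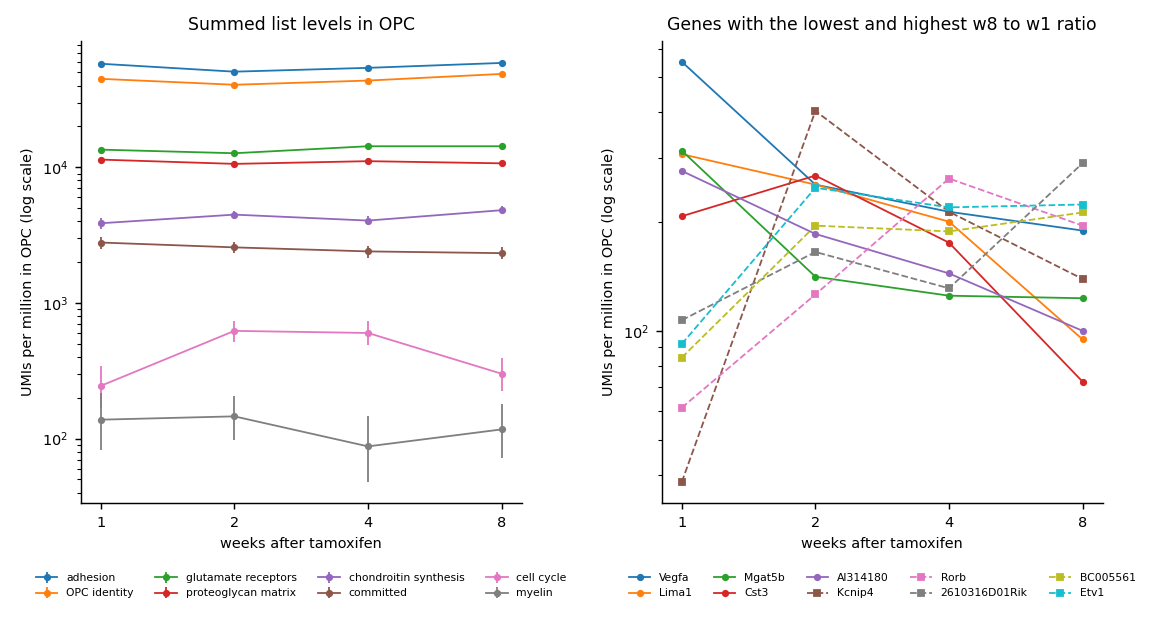
Left, summed levels of 8 gene lists in OPC by week, in CPM on a log axis with 95% Poisson intervals. Right, the 5 genes with the lowest (solid) and the 5 with the highest (dashed) w8 to w1 ratio, same unit. OPC identity lies between 40600 and 48800, with the w2 interval (39700 to 41500) apart from that of w8 (47800 to 49800). The myelin list lies between 87.7 and 146. The cell-cycle list is highest in w2 (623) and w4 (601), at 306 and 376 without 3 nuclei.

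The genes with the lowest ratio were Lima1, Vegfa, Cst3, AI314180 and Mgat5b. Vegfa, the vascular endothelial growth factor, was at 552, 253, 213 and 189 CPM in OPC, and its w1 interval (432 to 695) lay above that of w8 (131 to 265). In RGL of the same libraries it was at 52.6 CPM in w1 and 73.3 in w8. Mgat5b, a glycosyltransferase of the brain, was at 314, 141, 125 and 123 CPM. For both genes w1 stood apart and the later 3 weeks lay together. Lima1 was at 307, 253, 200 and 94.7 CPM, and in RGL it was at 451 in w1 and 236 in w8. The genes with the highest ratio were Kcnip4, Rorb, 2610316D01Rik, BC005561 and Etv1. Kcnip4 was at 38.3, 404, 213 and 139 CPM, while in all other nuclei of the same libraries it was at 328, 584, 7130 and 11700 CPM. The OPC values did not follow that order, and the part of free RNA in them was not tested. Etv1 was at 92.0, 248, 219 and 223 CPM, lowest in w1, though its w1 and w8 Poisson intervals overlapped. Rorb was at 61.4, 126, 263 and 195 CPM.

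**Figure D5:**
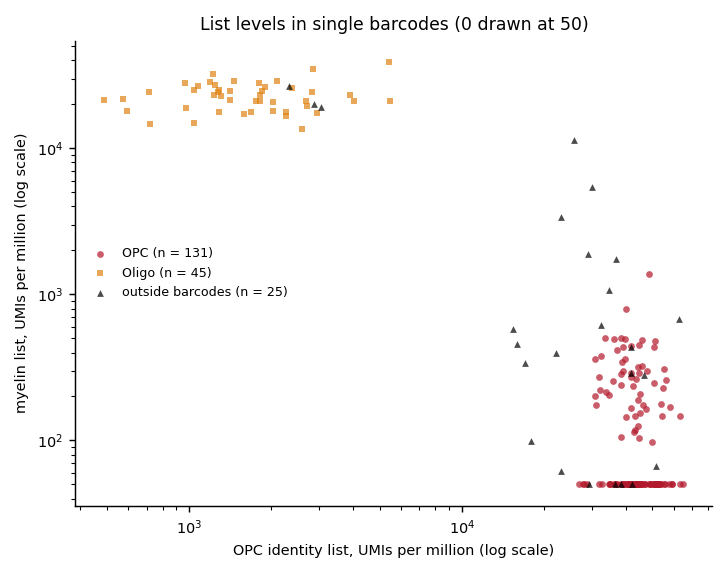
Summed OPC identity genes (x axis) and myelin genes (y axis) in single barcodes, both in CPM on log axes, for 131 OPC nuclei, 45 Oligo nuclei and 25 barcodes outside the expression table that held at least 3 of 6 oligodendrocyte lineage genes; a myelin level of 0 is drawn at 50. OPC nuclei lie at 27000 or more on the x axis and 1380 or less on the y axis, Oligo nuclei at 5480 or less and 13600 or more, and the outside barcodes reach from the Oligo nuclei to the OPC nuclei.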

How the data were processed

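Nuclei of 4 pooled libraries were sorted and sequenced by the authors with droplet barcodes. The deposited UMI counts per gene and barcode (17046 barcodes, 45706 features) were made by the authors with STARsolo 2.7.4a, as the submitters' processing notes give it, on mm10 with exonic and intronic reads, and reads mapping to several genes were left out. The deposited table of log2 values (log2 of counts over size factors plus 1) was used only for its cluster names and its 13353 genes. The authors kept 14367 barcodes after removing nuclei with under 1000 detected genes, called doublets, nuclei of low quality by depth and mitochondrial share, outliers of w4 and small graph components. No further doublet removal was made here.

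UMIs of the 14367 nuclei were summed per library and cluster (at least 10 nuclei, 38 sums) and fitted with edgeR 4.0.16 (R 4.3.3, TMM, glmQLFit and glmQLFTest, cluster and library terms, 22 residual degrees of freedom). Calls needed a fold of at least 1.5 and an adjusted p of at most 0.05. The script was tested on simulated data. Library totals of kept nuclei were 13227971 to 28595331 UMIs. Shares have Clopper-Pearson and levels exact Poisson intervals at 95%, and a count of 0 was read as up to 3 counts. An exact sign-flip test over 4 libraries cannot go below p = 0.125 and was not used. Alternatives were DESeq2 1.42.0, other scalings, filters, thinning to 2000 UMIs and leaving out each week. Counts and tables were handled with Python 3.11.15, pandas 2.3.3 and scipy 1.17.1.

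Genes were named by 5 rules: the 20 with the largest smallest difference over the 3 comparisons (at least 50 UMIs, called in all, same direction in every library), the 5 furthest up and down per comparison, the 10 leading genes outside the table (at least 20 UMIs), the 5 highest and 5 lowest w8 to w1 ratios (at least 100 UMIs, 1 UMI added), and members of the gene lists. The members and lists were chosen with earlier results of these data known. A few members of the lists are counted but not reported by name here.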

Additional observations from a re-analysis of the deposited data

Results flagged for a closer look

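Among the 2679 barcodes of the count files that have no place in the expression table, 25 held UMIs of at least 3 of the 6 genes Cspg4, Prkg2, Sox10, Pdgfra, Olig1 and Olig2, which is a signal in barcodes that no comparison above used. They came from all weeks (9, 4, 6 and 6 for w1 to w8) and had a median of 5723 UMIs and 2499 detected genes. Among kept nuclei outside the OPC cluster only 5, all Oligo, passed the same threshold. The OPC identity list was at 2330 to 62800 CPM in single barcodes (median 29300), with 14 of the 25 within the range of the OPC nuclei and 11 below it. Their myelin list was at 2400 CPM over all 25 barcodes, against 123 in OPC, with 4 barcodes at 10000 or more, and 11 barcodes lay within the OPC range of both lists. Their neuron list was at 4430 CPM, against 2900 in OPC. Of the 25, 1 had under 1000 detected genes, and which of the study's other filters left out the rest was not tested.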

How the results depend on the processing

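Clusters of the same library were paired through the library term of the fit, and without it 3308, 2319 and 3100 genes were called against RGL, Astro and the neuronal mean. Between weeks, no paired analysis was possible because each week has 1 library. Of 590 gene calls followed, 385 were kept under every alternative that gave them a value and 205 were lost under at least 1. No list level moved by more than the SD between weeks. Leaving out 1 week could hardly exceed that limit, so this does not show stability. Sparse lists moved by over 1.5 times, with pericyte genes at 0 CPM without w2, leptomeningeal genes at 1.94 without w4 and endothelial genes at 3.82 thinned. Genes called at a fold of at least 4 numbered 1740 against RGL, 1546 against Astro, 1490 against the neuronal mean (982 higher and 508 lower) and 311 higher in all 3. After thinning to 2000 UMIs 2210 were called against RGL and 1406 against Astro, of 8498 genes tested. Fitting only the clusters compared gave 2093 of 4894 tested against RGL, 1322 of 2798 against Astro and 424 higher in all 3. As the main fit tested 11548 genes, these smaller counts are not only lost calls. Leaving out each week in turn gave 2888 to 3152 calls against RGL, 1787 to 2198 against Astro, 2599 to 2867 against the neuronal mean and 528 to 639 higher in all 3. Brip1 against the neuronal mean turned to -0.45 after thinning, the one reversed call. Of non-neuronal nuclei, OPC were 4.49, 6.34, 8.06 and 26.7% in w1, w2, w4 and w8, as RGL numbers went from 486 to 83. The share with a cell-cycle UMI was 39.7% thinned, 32.1% at 2 or more UMIs, and 57.5 to 59.4% without each week. The share with Gpr17, Bcas1 or Enpp6 was 61.8% thinned, 47.3% at 3 or more UMIs, and 80 to 84.4% without each week. Outside barcodes numbered 62 at 2 or more of the 6 genes and 13 at 4 or more. The 131 OPC nuclei limit levels to above 4.44 CPM.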

Other observations

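Nuclei were called male or female from sex-linked transcripts, since each pool held both sexes. Of called OPC nuclei 61.1, 42.4, 65.4 and 75.9% were male in w1, w2, w4 and w8, against 67.4, 31.8, 17.7 and 86.4% of the other nuclei. These are shares of the nuclei that were kept, and the authors had removed a group of outlying w4 nuclei, so they do not give the makeup of the pools, and the part of sex in the w1 and w8 values was not tested.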
